A study of Mus musculus with 4 samples.

Results

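The 10 genes described here encode proteins that store, move and break down fat in cells: Plin2, Hilpda, Pnpla2, Dgat1, Cd36, Fabp4, Fabp5, Lpl, Apoe and Pltp. They were chosen by name, with earlier results of these data known. Each was read from the array table by its gene symbol, Plin2 under the older symbol Adfp and Hilpda under 2310016C08Rik. All 10 were among the 22221 named genes of the array. The cells were dendritic cells grown with GM-CSF from the bone marrow of C57Bl/6 mice. They were held for 16 h in 1 of 4 conditions, which were hypoxia with poly I:C, hypoxia in media, normoxia with poly I:C, and normoxia in media. The labels give hypoxia as 0.5% without naming the gas, and the poly I:C dose as 10 µg/ml. Poly I:C mimics the double-stranded RNA of viruses. Total RNA of each condition went onto a single Affymetrix array (Mouse Gene ST 1.0), and the labels give neither the age of the mice nor whether marrow was pooled. There are no replicates, so nothing below has an error between replicates or was tested, and no p-value is given.

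Neutral fat is kept in lipid droplets, whose surface is coated by perilipins such as Plin2. Diacylglycerol acyltransferases such as Dgat1 make the triacylglycerol, and the lipase that Pnpla2 encodes (ATGL) breaks it down, a step that the small droplet protein Hilpda restrains. Fatty acids reach the cell through the scavenger receptor Cd36 and through the lipase Lpl, which frees them from lipoproteins, and Fabp4 and Fabp5 carry them inside. Apoe and Pltp are secreted and take part in the handling of lipoproteins, Apoe as a ligand for their uptake and Pltp by moving phospholipids between particles. Hilpda is a known target of hypoxia-inducible factors (HIF), and Lpl, Apoe and Pltp are known targets of the sterol-sensing LXR receptors.

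Levels are given as linear RMA intensities, the background-corrected and normalized brightness of a gene's probes. Array medians lay between 3.90 and 4.09 and maxima between 7225 and 8810, and a gene counted as measurable when its brightest array reached 64, which 2715 genes did. As a yardstick, the robust SD over these genes of the difference of differences (defined below) was 0.45 on the log2 scale, which scales to 0.32 for a difference between 2 arrays. This spread is over genes, not replicates, and includes any response to the combined treatment. Of a list of 10 HIF target genes 9 were measurable, and all 9 were at least 2-fold higher in hypoxia in media. With poly I:C in normoxia, 10 of 10 interferon-stimulated genes were. The shares of all measurable genes were 5.34% and 14.8%. Some had to be high there, since Egln3 reached 64 only on hypoxic arrays and Ifit1 only on those with poly I:C. With poly I:C in normoxia 7 of the 9 HIF targets were also 2-fold higher. In hypoxia in media 7 of the 10 interferon-stimulated genes were 2-fold lower, beside 6.78% of all genes. Of 10 dendritic cell markers 6 were measurable, among them Itgax (268 to 615) and H2-Aa (902 to 1395), while Flt3, Zbtb46, Batf3 and Irf4 stayed at 23.4 or below. All 10 macrophage markers were measurable, Lyz2 at 2856 to 3543. None of 8 adipocyte markers was, with Adipoq between 2.2 and 2.6.

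Promoter letters were set beside the hypoxia data, because HIF binds DNA at the core letters ACGTG or GCGTG. The RefSeq promoter table (GRCm38.p6) held 6 of the 10 genes: Plin2, Hilpda, Pnpla2, Cd36, Apoe and Pltp. Within the 250 bases before a start site, read on both strands, Hilpda had 3 cores before 1 of its 2 listed starts and none before the other, Plin2 had 1 and Pltp had 1. Pnpla2, Cd36 and all 3 listed starts of Apoe had none. Among all 32851 windows of this length, 38.6% held at least 1 core. The windows of Hilpda (chr6:29272376-29272625, plus strand) and Pltp (chr2:164857709-164857958, minus strand) are printed 5′ to 3′ with the cores in capitals, since these genes had the largest hypoxia differences in media of the 10. A match describes the letters and is not a binding site.
Hilpda: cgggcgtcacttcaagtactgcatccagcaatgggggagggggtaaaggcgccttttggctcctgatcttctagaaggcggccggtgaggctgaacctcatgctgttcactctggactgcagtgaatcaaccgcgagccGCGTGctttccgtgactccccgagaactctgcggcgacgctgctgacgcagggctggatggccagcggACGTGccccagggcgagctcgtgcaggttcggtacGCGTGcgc
Pltp: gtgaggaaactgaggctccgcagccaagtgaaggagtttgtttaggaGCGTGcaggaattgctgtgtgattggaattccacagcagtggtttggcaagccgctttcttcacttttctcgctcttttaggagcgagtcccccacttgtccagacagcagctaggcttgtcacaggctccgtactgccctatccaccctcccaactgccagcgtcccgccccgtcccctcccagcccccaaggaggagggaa
In Hilpda the cores lay at positions -111 to -107, -43 to -39 and -8 to -4 relative to the start, the middle one ACGTG and the others GCGTG. In Pltp a single GCGTG lay at -203 to -199. The CACGTG palindrome, which contains ACGTG, was in none of the 9 windows of these genes and in 6.02% of all windows.

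Among droplet genes, Hilpda was high on both hypoxic arrays, and Plin2 was above untreated cells on all 3 treated arrays. Hilpda read 114 in hypoxia with poly I:C, 62.0 in hypoxia in media, 11.9 in normoxia with poly I:C and 10.2 in normoxia in media. Both hypoxic arrays thus stood far above both normoxic ones, by 9.56-fold with poly I:C (log2 difference 3.26) and by 6.08-fold in media (2.61). Hilpda reached 64 in hypoxia with poly I:C only, and a gene admitted through 1 condition had to be high there. Poly I:C on its own left it close to the media array in normoxia (0.23), and in hypoxia the array with poly I:C was 0.88 higher than the one in media.

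Plin2, the perilipin of non-fat cells, read 305 in hypoxia with poly I:C, 356 in hypoxia in media, 327 in normoxia with poly I:C and 198 in normoxia in media. All 3 treated arrays lay close together and above the untreated one. Its log2 difference was 0.85 for hypoxia in media and 0.73 for poly I:C in normoxia, both short of 2-fold. With poly I:C present, hypoxia was at -0.10, and in hypoxia, poly I:C was at -0.22, each smaller than the 0.32 spread over genes. The highest and lowest arrays differed by 1.80-fold.

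The enzymes on either side of the triacylglycerol pool were dim. Pnpla2 read 28.1 in hypoxia with poly I:C, 27.8 in hypoxia in media, 23.0 in normoxia with poly I:C and 22.8 in normoxia in media. No pair of its arrays differed by more than 1.23-fold. Dgat1 read 27.3 in hypoxia with poly I:C, 17.5 in hypoxia in media, 13.2 in normoxia with poly I:C and 16.6 in normoxia in media. Its hypoxia difference was 1.05 with poly I:C and 0.08 in media, and the first shrank to 0.57 with an offset of 16 added to the intensities.

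**Figure D1:**
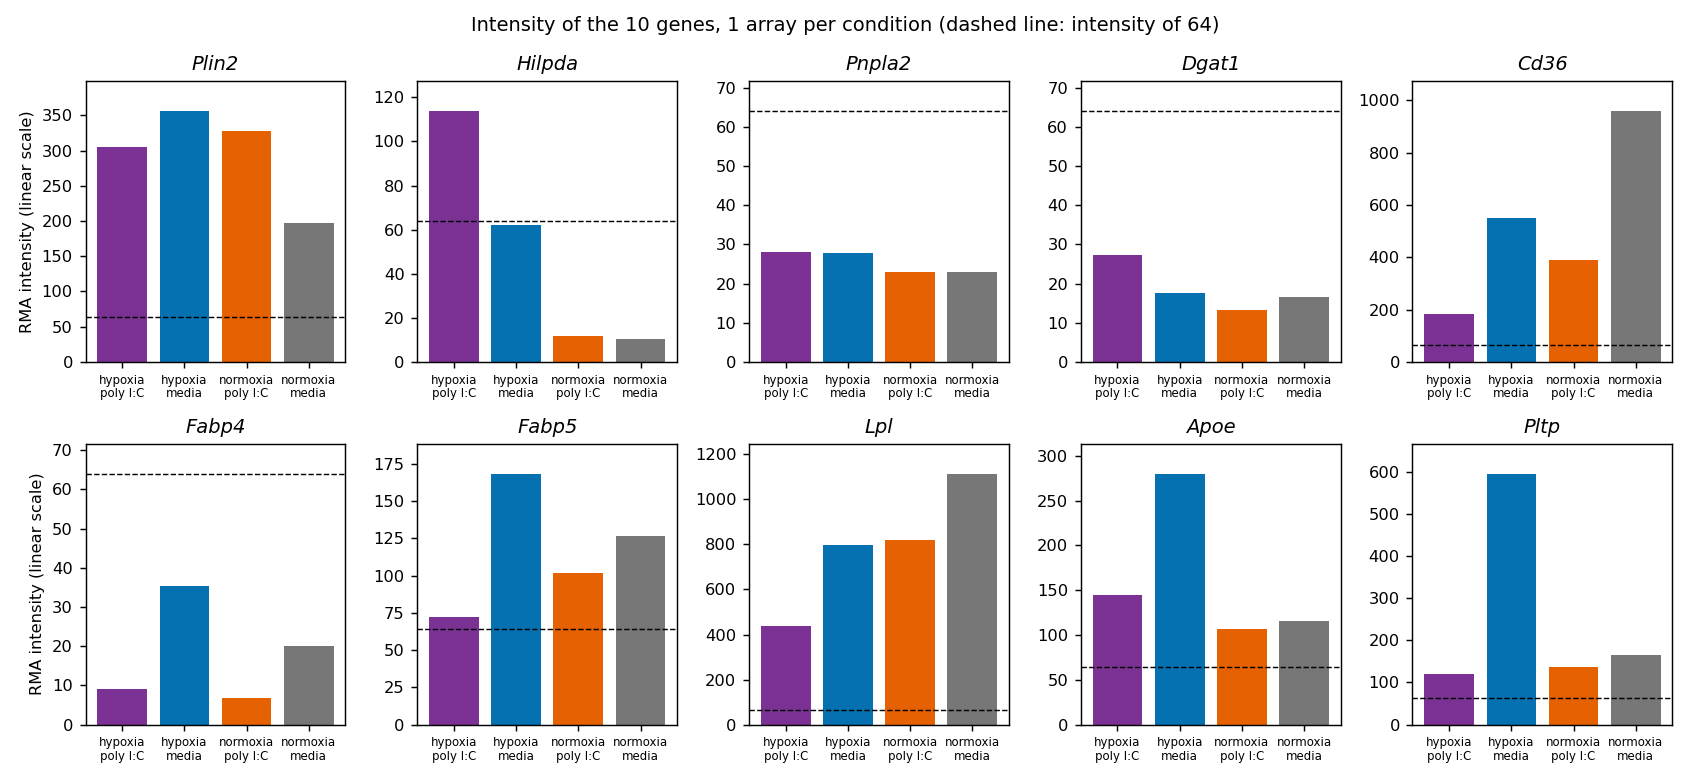
Each panel shows 1 gene's RMA intensity (linear scale, vertical axis from 0) on the array of each condition, 1 bar per array, with a dashed line at an intensity of 64. Hilpda is high on both hypoxic arrays, Pltp on the array of hypoxia in media only (595), and Cd36 and Lpl are lowest in hypoxia with poly I:C (182 and 438).

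The genes of fatty acid uptake and transport, Cd36, Fabp5 and the dim Fabp4, read lower with poly I:C than in media at both oxygen levels, by less than 2-fold for Fabp5 in normoxia. Cd36 read 182 in hypoxia with poly I:C, 549.8 in hypoxia in media, 389.7 in normoxia with poly I:C and 959 in normoxia in media. Either treatment alone went with less Cd36 signal, and both together with the least, 5.27-fold below untreated cells. The poly I:C difference was -1.60 in hypoxia and -1.30 in normoxia, and the hypoxia difference was -1.10 with poly I:C and -0.80 in media. The difference of differences for Cd36, -0.30, was smaller than its spread over genes (0.45). Whether the effects of both treatments add up on the log2 scale was not tested.

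Fabp5 was listed with 2 probe sets, and the brighter was used. It read 72.2 in hypoxia with poly I:C, 168 in hypoxia in media, 102 in normoxia with poly I:C and 127 in normoxia in media, and the other probe set read 68.6, 161, 91.9 and 123 in the same order of conditions. Both probe sets were highest in hypoxia in media and lowest in hypoxia with poly I:C. The poly I:C difference in hypoxia was -1.22 for the first and -1.23 for the other, and in normoxia -0.31 and -0.42.

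Fabp4 stayed below 64 on every array. It read 9.17 in hypoxia with poly I:C, 35.3 in hypoxia in media, 6.86 in normoxia with poly I:C and 20.03 in normoxia in media. Both arrays with poly I:C lay below both arrays in media, with differences of -1.95 in hypoxia and -1.55 in normoxia. With an offset of 16 these shrank to -1.03 and -0.66, so their size rests on dim signal.

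Lpl read 438 in hypoxia with poly I:C, 797 in hypoxia in media, 821 in normoxia with poly I:C and 1114 in normoxia in media. Each treatment alone left Lpl within 2-fold of untreated cells, at -0.48 for hypoxia and -0.44 for poly I:C. With both treatments it was 2.54-fold lower (-1.34). The arrays of hypoxia in media and of normoxia with poly I:C differed by less than the 0.32 spread over genes. That spread is not an error between replicates, so the order of these arrays was not tested.

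Of the secreted lipoprotein genes, Pltp and Apoe were high in hypoxia in media. Pltp read 121 in hypoxia with poly I:C, 595 in hypoxia in media, 137 in normoxia with poly I:C and 164 in normoxia in media. One array stood apart and the other 3 lay within 1.36-fold of each other. Hypoxia in media was 3.63-fold above normoxia in media (1.86), whereas with poly I:C the hypoxia difference was -0.18. In hypoxia, Pltp was 4.92-fold lower with poly I:C (-2.30), and in normoxia its poly I:C difference was -0.26.

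Apoe read 144 in hypoxia with poly I:C, 279.9 in hypoxia in media, 106 in normoxia with poly I:C and 116 in normoxia in media. It too was highest in hypoxia in media, 2.41-fold above normoxia in media (1.27). With poly I:C its hypoxia difference was 0.44, and in hypoxia its poly I:C difference was -0.96. The poly I:C difference in normoxia was -0.13 and turned to 0.07 with cyclic loess scaling.

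Some markers of other cells moved with these conditions. In bulk RNA, fewer cells of a type and less RNA per cell cannot be told apart. The 10 neutrophil markers summed to 129 in hypoxia with poly I:C, 619.9 in hypoxia in media, 145 in normoxia with poly I:C and 499.9 in normoxia in media, most of it Mmp8, with Ly6g, Elane, Mpo and S100a8 at 6.89 or below. The 5 platelet markers on the array, a cell type that also carries Cd36, summed to 57.9, 115, 45.7 and 194 in that order. Ppbp made up 110 of the untreated sum, and Itga2b and Gp9 stayed at 4.58 or below. The dim Pf4 read 16.8, 21.1, 13.6 and 44.5 in the same order, highest in untreated cells as Ppbp was. Of the 5 platelet markers only 2 were measurable, and in hypoxia in media Ppbp was lower (-2.58) and Vwf higher (1.06). Ppbp was admitted by the untreated array alone and Vwf by that of hypoxia in media alone. The 10 macrophage markers summed to 5734, 5722, 5392 and 5908 in the same order. That macrophage sum was mostly Lyz2, and its members went both ways. With both treatments against untreated cells, 4 of 10 were at least 2-fold lower, beside 14.4% of all genes. These were Mrc1, Marco, Adgre1 and Mertk, at -4.77 to -1.54. In the other direction 2 were higher (Fcgr1 at 3.86 and Cd14 at 1.89), beside 18.8% of all genes. The 10 dendritic cell markers summed to 4576, 4055, 3418 and 3276, mostly H2-Ab1, H2-Aa and Cd74, and they too went both ways. With both treatments against untreated cells, 2 of the 6 measurable ones were at least 2-fold higher, beside 18.8% of all genes. These were Cd86 at 3.70 and H2-Ab1 at 1.15. The other call was Itgax, which was lower (-1.20), beside 14.4% of all genes. The 5 proliferation genes summed to 19.2, 25.7, 25.5 and 229. Only 1 of them was measurable, and no value of theirs passed 78.5. The part of all these markers in the lipid gene results was not tested.

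Over all 10 genes, 5 were highest in hypoxia in media, 3 in hypoxia with poly I:C and 2 in normoxia in media. None was highest in normoxia with poly I:C. The 5 include Fabp4, which is dim. The 3 are the dim Pnpla2 (28.1, against 27.8 in hypoxia in media) and Dgat1, and Hilpda, measurable through that array alone. The shares that follow cover measurable genes only. Of all measurable genes, 23.4% were highest in hypoxia in media, 24.7% in hypoxia with poly I:C, 31.2% in normoxia in media and 20.7% in normoxia with poly I:C. Counted at 2-fold or more, 3 of the 7 measurable genes were higher in hypoxia than in normoxia in media (Hilpda, Pltp and Apoe) and none was lower. Over all 2715 measurable genes 5.34% were higher and 6.78% lower in that comparison. The median of the 7 was 0.85, against -0.10 over all genes. The question there is what low oxygen does to unstimulated cells, and 2 of the 7, Cd36 and Lpl, were below 0.

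With poly I:C present, hypoxia left 1 of 7 genes higher (Hilpda) and 1 lower (Cd36), beside 3.98% and 3.68% of all genes. Hilpda was among the 7 only through the array of hypoxia with poly I:C, the high array of this comparison. The 7 had a median of -0.18, against -0.05 over all genes. In hypoxia, poly I:C left 0 of 7 higher, beside 16.5% of all genes, and 3 lower (Pltp, Cd36 and Fabp5), beside 9.61%. For poly I:C against media in normoxia, 0 of 7 were higher, beside 14.8% of all genes, and 1 was lower (Cd36), beside 7.18%. For poly I:C, the median of the 7 was -0.96 in hypoxia, against -0.06 over all genes, and -0.26 in normoxia, against -0.03 over all genes. These comparisons share arrays with the hypoxia comparisons, so a high array of hypoxia in media enters both. Both treatments together, set against untreated cells, left 1 of 7 higher (Hilpda, 3.48), beside 18.8% of all genes, and 2 lower (Cd36 and Lpl), beside 14.4%. The Hilpda value again uses the array that admitted it.

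**Figure D2:**
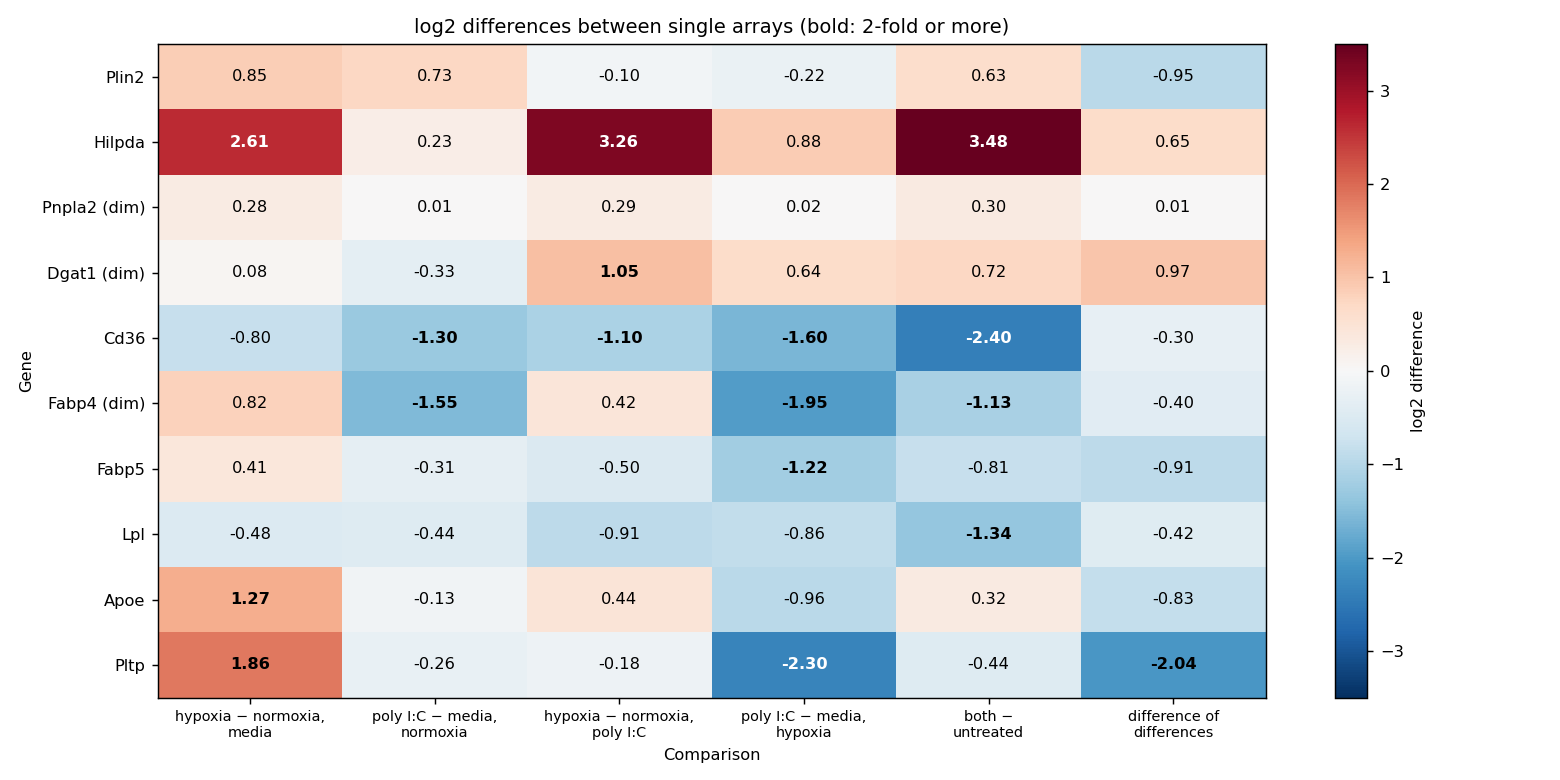
Rows are the 10 genes, with "dim" for those below 64 on every array, columns are comparisons between single arrays, and colour and number give the log2 difference, in bold where it is 2-fold or more. Hilpda is positive in every column, Cd36 negative in every column, and Pltp is at 1.86 for hypoxia in media and -0.18 for hypoxia with poly I:C.

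The crossed design also asks whether hypoxia acts alike in resting and stimulated cells. The difference of differences is the hypoxia difference with poly I:C minus the hypoxia difference in media. For Pltp it was -2.04, and 0.26% of all measurable genes lay as low. Of the 7 genes this was the only one past 2-fold, beside 2.91% of all genes on that side, and none was past it on the high side, beside 5.89%. Plin2 (-0.95), Fabp5 (-0.91) and Apoe (-0.83) lay between the 0.45 spread and 2-fold. Hilpda was the only one of the 7 above 0 (0.65), a value that a high reading on the array that admitted it raises. Plin2 passed 2-fold with the arrays centred on their medians (-1.02) or quantile normalized (-1.04).

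**Figure D3:**
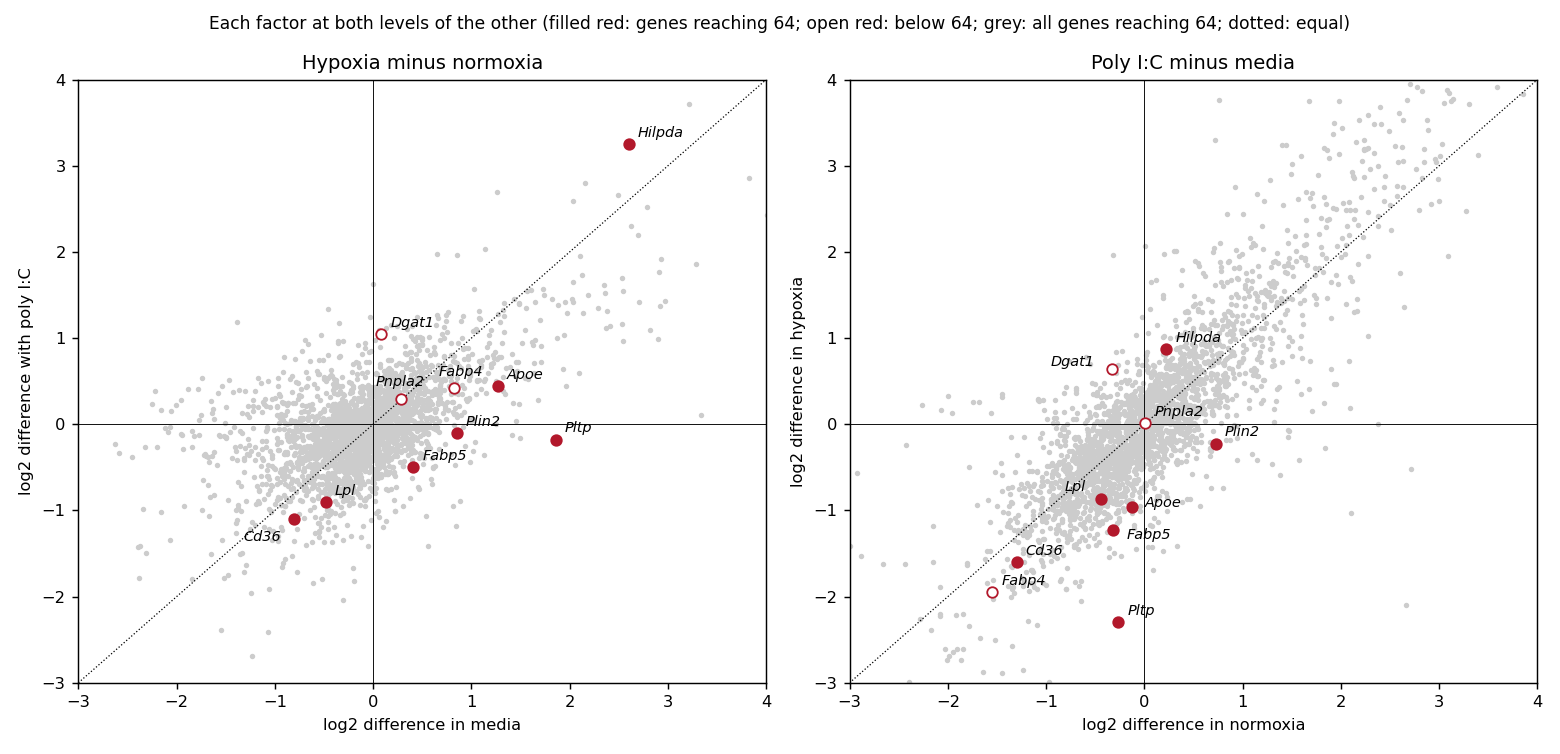
Points are genes, with the log2 difference of 1 factor at a level of the other on each axis (left, hypoxia minus normoxia with poly I:C against media; right, poly I:C minus media in hypoxia against normoxia), red for the 10 genes (open where below 64), grey for all 2715 measurable genes, of which 13 lie outside the left axes and 91 outside the right ones. Pltp lies far below the dotted line of equal differences in both panels (1.86 and -0.18 on the left, -0.26 and -2.30 on the right), and Hilpda lies above it.

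The rest of the lipid pathways was described with 7 lists, which contain the 10 genes. In the droplet list 6 of 22 genes were measurable, and the genes 2-fold higher in hypoxia in media were Hilpda and the perilipin Plin3, beside 5.34% of all genes, each admitted by a single hypoxic array. Plin3 read 53.4 in hypoxia with poly I:C, 107 in hypoxia in media, 61.3 in normoxia with poly I:C and 52.1 in normoxia in media, so it stood out on the same array as Pltp and Apoe (1.04). In the triacylglycerol synthesis list 1 of 18 genes was measurable, Lpcat2, a lysophospholipid acyltransferase, at -1.48 for hypoxia in media.

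In the list of fatty acid uptake, binding and activation 7 of 22 genes were measurable. Acsl1, which joins fatty acids to coenzyme A, read 184 in hypoxia with poly I:C, 66.6 in hypoxia in media, 601 in normoxia with poly I:C and 166 in normoxia in media. It was higher with poly I:C (1.46 in hypoxia, 1.86 in normoxia) and lower in hypoxia (-1.71 with poly I:C, -1.31 in media), unlike Cd36, which was lower with both. Dbi, the acyl-CoA binding protein, was lower with poly I:C in normoxia (-1.26). In the list of fatty acid synthesis and desaturation 5 of 16 genes were measurable. Fads1, a desaturase, was lower in all 4 comparisons of single treatments (-1.25 to -1.17), though it was admitted by the untreated array alone, and Elovl5, an elongase, was lower for poly I:C in hypoxia (-1.40) and for hypoxia in the presence of poly I:C (-1.17).

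The 10 measurable genes of fatty acid oxidation had none 2-fold apart in either hypoxia comparison, in which few of all genes were apart too (3.98% higher and 3.68% lower with poly I:C, 5.34% and 6.78% in media). With poly I:C in hypoxia 3 of 10 were lower, beside 9.61% of all genes, among them the acyl-CoA dehydrogenase Acadm (-1.84) and the carnitine acetyltransferase Crat (-1.22). The mitochondrial carrier Ucp2 read 239 in hypoxia with poly I:C and 477 in hypoxia in media, just short of 2-fold, and was at -1.29 with both treatments together. With poly I:C in normoxia 1 of 10 was lower, Acadm (-1.03), beside 7.18% of all genes. The list's median was -0.56 for poly I:C in hypoxia and -0.65 for poly I:C in normoxia, against -0.06 and -0.03 over all genes.

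Of 25 genes of lipoprotein processing, uptake and efflux 14 were measurable. In hypoxia in media the 2 genes higher were Pltp and Apoe, already described, beside 5.34% of all genes, and none was lower, beside 6.78%. For poly I:C in hypoxia, 5 of 14 were lower, beside 9.61% of all genes, and 1 was higher, beside 16.5%. The lysosomal lipase Lipa, which splits the fat and cholesterol esters of ingested lipoproteins, read 328 in hypoxia with poly I:C, 703 in hypoxia in media, 835 in normoxia with poly I:C and 1370.4 in normoxia in media. As with Lpl, it was highest in untreated cells and lowest with both treatments together (-2.06). The lysosomal cholesterol carrier Npc2 was higher with poly I:C (1.27 in hypoxia, 1.61 in normoxia), and the HDL receptor Scarb1, admitted by the array of hypoxia in media alone, was lower (-1.15 and -1.38). Of 16 lipid-sensing transcription factors 2 were measurable, and Srebf2, which drives cholesterol synthesis genes, was at -1.70 for poly I:C in normoxia, admitted by the untreated array alone.

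For each of the 7 measurable genes, the genes nearest in pattern were found by the Euclidean distance between log2 values over the 4 arrays, each centred on its own mean. Hilpda was nearest to the metallothionein gene Mt2 (distance 0.54) and to the mitochondrial gene Fam162a (0.54). Pltp was nearest to Ddx46 (0.35), an RNA helicase gene that read 58.6, 243, 48.3 and 75.8 in hypoxia with poly I:C, hypoxia in media, normoxia with poly I:C and normoxia in media. Apoe was nearest to the Fc receptor gene Fcgr3 (0.26) and to the gelsolin gene Gsn (0.29), and Plin2 to Cytip (0.15) and Alg9 (0.17). Cd36 lay closest to Hsd17b4 (0.072), an enzyme of peroxisomal fatty acid oxidation, and then to Mbnl1 (0.22). Lpl lay closest to Thrap3 (0.075) and Sf3b3 (0.089), and Fabp5 to Sbf2 (0.11) and Mgst1 (0.11). Among the 7 genes themselves the closest pair was Fabp5 and Lpl (0.70). With 4 arrays such distances describe these arrays only.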

How the data were processed

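The authors ran RMA in Affymetrix Expression Console, per the submitters' processing notes. Its version and the annotation build were not given in the sources used here. The deposited intensity values are linear and cover 28998 probe sets, in 2 tables with 0 differing values, so log2 was taken here first. The text table also holds the authors' deposited ratio of the highest to the lowest intensity, and 548 probe sets have a ratio of at least 3 with a range of at least 80, those of Hilpda, Cd36 and Pltp among them. Its 4 columns of Z-scores per sample were not used.

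Probe sets were named by RefSeq accession (18694), current symbol (2210), synonym (1750) or as in the file (2270), and 163 with several genes and 3911 with none were left out. The probe set of highest mean stood for a gene. Log2 differences were counted at 2-fold or more among genes whose brightest array reached 64 (6 on the log2 scale), with Python 3.11.15, pandas 2.3.3 and limma 3.58.1 (alternative scalings). Counting was checked on simulated data with shifts well past 2-fold, which leaves calls near 2-fold unchecked. Alternatives were other floors and fold thresholds, the mean over probe sets, an offset of 16, median centring, quantile normalization and cyclic loess, and the other deposited table. There is no test, since each condition has 1 array, which also limits precision. Genes named besides the 10 are up to 4 of each list that were 2-fold apart, by largest difference, with up to 2 nearest in pattern, and, from marker lists, the brightest genes, those 2-fold apart and defining markers near background. The 10 genes and all lists were chosen with earlier results of these data known. The values of 1 list gene are not reported here.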

Additional observations from a re-analysis of the deposited data

Results flagged for a closer look

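Some hypoxia and poly I:C differences had opposite signs at the levels of the other factor. Each rests on 1 array per condition, and none of these differences of differences was tested. Pltp was at -0.18 for hypoxia with poly I:C and 1.86 for hypoxia in media, a difference of differences of -2.04. Plin2 changed sign for both factors, with -0.10 and 0.85 for hypoxia (with poly I:C, in media) and -0.22 and 0.73 for poly I:C (in hypoxia, in normoxia), a difference of differences of -0.95. Fabp5 was at -0.50 and 0.41 for hypoxia (with poly I:C, in media), a difference of differences of -0.91, and its other probe set gave -0.82. The dim Dgat1 was at 0.64 and -0.33 for poly I:C (in hypoxia, in normoxia), a difference of differences of 0.97. The Plin2 values of -0.10 and -0.22 and the Pltp value of -0.18 are smaller than the 0.32 spread over genes.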

How the results depend on the processing

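No paired analysis was possible because each condition has 1 array, so no array can be left out either. Of 360 recomputed log2 differences of the 10 genes, 353 moved by less than the spread over genes (0.32, or 0.45 for the difference of differences) and none that was called changed sign. The other 7 belong to Hilpda, Fabp4 and Dgat1 under an offset of 16, which shrinks dim values. Hilpda was then at 2.22 for hypoxia with poly I:C and 1.57 in media, still past 2-fold. Many of the 360 could not move so far. The other deposited table holds the same values and could change no difference or count, and only Fabp5 has 2 probe sets to average. Median centring shifts every gene of a comparison by the same amount, each smaller than these spreads. Of 66 recounts of the measurable genes 54 stayed within 1.5 times. At 1.5-fold the counts apart were 5 for hypoxia in media, 2 for poly I:C in normoxia, 6 for poly I:C in hypoxia, 5 for both treatments and 5 for the difference of differences, against 3, 1, 3, 3 and 1 at 2-fold. At 3-fold they were 0 for poly I:C in normoxia and 1 for hypoxia with poly I:C. A floor of 32 or none brought in Fabp4 and gave 2 for poly I:C in normoxia, and a floor 1 log2 unit above the main one dropped Hilpda and gave 1 for hypoxia with poly I:C, against 2. Centring the arrays on their medians, or quantile normalization, gave 2 for the difference of differences, adding Plin2. Of 660 recounts of list members 158 moved by more than 1.5 times, 33 at 1.5-fold, 29 at 3-fold and 29 without a floor. Cyclic loess moved the median of all genes by 0.19 for poly I:C in hypoxia, by 0.20 for it in normoxia and by 0.25 for both treatments, and median centring moved it by -0.13 for poly I:C in hypoxia. Under cyclic loess 74.6% of the 2-fold calls over all genes for poly I:C in hypoxia were higher ones, against 63.2% without it. For poly I:C in normoxia they were 78.4%, against 67.4%, and for both treatments 69.7%, against 56.7%. Centring gave 53.0% for poly I:C in hypoxia. Pnpla2, Dgat1 and Fabp4 stayed below 64 on all arrays, which limits what can be said of them.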

Other observations

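Several lipid genes below the intensity floor had wide ranges over the 4 arrays, and they are named here after their values were seen. Fabp3, a fatty acid carrier known from heart muscle, read 61.9 in hypoxia with poly I:C, 5.1 in hypoxia in media, 31.8 in normoxia with poly I:C and 4.1 in normoxia in media. Both arrays with poly I:C lay above both arrays in media, opposite to Fabp4 and Fabp5. Lpin1, a phosphatidate phosphatase of triacylglycerol synthesis, read 9.2, 52.4, 5.6 and 28.6 in the same order of conditions, lower on both arrays with poly I:C. Dgat2, the other enzyme of the last step of that synthesis, read 26.6, 9.1, 12.2 and 6.7, highest in hypoxia with poly I:C as Dgat1 was. Apoc2, the cofactor of Lpl, read 8.7, 25.6, 9.1 and 7.9, highest in hypoxia in media as Apoe was.

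Among efflux genes, named after their values were seen, Abcg1 read 219 in hypoxia with poly I:C, 214 in hypoxia in media, 353 in normoxia with poly I:C and 141 in normoxia in media. Its poly I:C difference was 0.03 in hypoxia and 1.32 in normoxia. Abca1 read 84.3, 174, 123 and 159 in the same order, with poly I:C differences of -1.05 in hypoxia and -0.37 in normoxia.

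Counting up to 2 neighbouring genes on each side of the 10, with a neighbour of 2 genes counted for each, 4 of 39 on the array were measurable. Beside Pltp, Ctsa, which encodes a lysosomal protease, read 388 in hypoxia with poly I:C, 509.8 in hypoxia in media, 305 in normoxia with poly I:C and 337 in normoxia in media. The dim Neurl2, on the same side, read 5.90, 13.5, 4.87 and 7.03 in that order, also highest in hypoxia in media, with 0.94 for hypoxia in media and -1.19 for poly I:C in hypoxia.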
